A study of Mus musculus with 12 samples.

Results

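The nuclear genes of the mitochondrial respiratory chain were compared between sternal cartilage of WT mice and of QT mice, which the labels call TIMPless and which lack all 4 Timp genes. The genes were chosen by their symbols, as those of the Nduf, Sdh, Uqcr, Cox4 to Cox8 and Atp5 families. They came to 80 of the 22180 genes that had a probe set named for them alone, a probe set being the group of array probes summarised to 1 value. Of these, 70 encode widely expressed subunits, with 31 in complex I, 4 in complex II, 7 in complex III, 11 in complex IV and 17 in complex V. The other 10 were set apart, as 3 muscle isoforms of complex IV, 5 further isoforms restricted to other tissues or conditions and 2 pseudogenes. Where a gene had several probe sets the brightest was used, and 10 further probe sets that name a member together with another gene were left out, so that Uqcr10, Ndufs6, Cox6c, Ndufb4 and Ndufb2 were not analysed here.

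Both groups held 6 untreated mice, 4 wk old, of strain C57BL/6J, and the RNA of each mouse was read on its own Affymetrix Mouse Gene ST 2.0 array. QT mice carry knockout alleles of Timp1, Timp2, Timp3 and Timp4 in every tissue, with stop codons placed in Timp1 and exons removed from the other 3 genes, so the comparison does not separate effects that begin in cartilage from effects that begin elsewhere. The sternums were frozen whole, and the cartilage pads were cut out later without the xiphoid process. Values are log2 expression after normalization across arrays, so each unit of difference is a doubling, and levels of different genes are not set against each other.

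The respiratory chain passes electrons from NADH through complex I, or from succinate through complex II, to ubiquinone, then through complex III and cytochrome c to complex IV, which reduces oxygen. Complexes I, III and IV pump protons out of the mitochondrial matrix, and complex V, the ATP synthase, lets them return and makes ATP. Chondrocytes live in tissue without blood vessels and obtain much of their ATP from glycolysis, whereas skeletal muscle and brown fat are rich in mitochondria and use isoforms of some complex IV subunits that most other tissues lack.

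The tissue and the genotypes could be checked in the same arrays. The cartilage genes Col2a1 and Acan, which encode type II collagen and aggrecan, had means of 12.85 and 12.61 in WT and 12.83 and 12.56 in QT, with array medians of 6.15 to 6.20. Of the 13 measured genes of the cartilage list 2 were lower in QT mice, which were Comp, a matrix protein, at -0.52 with no overlap of the genotypes and Snorc at -0.37 (limma adjusted p = 0.00138 and 0.0478). The list had a median change of -0.18, and Matn1, at -0.97, did not pass (limma adjusted p = 0.182). All 4 Timp genes were lower in QT mice (limma adjusted p of 3.7e-06 to 0.0276). WT replicates 5 and 6 stood apart in sex-linked genes, with Xist at 5.17 and 5.34 against 11.91 to 12.22 in the other 10 mice and Eif2s3y at 9.06 and 9.20 against 3.50 to 3.99. Values without them are given beside the medians and the isoforms. Markers of tissues that border the pads also differed between genotypes. Among skeletal muscle genes 10 of 22 were lower in QT mice, as were 7 of 9 white adipocyte genes and 2 of 6 brown adipocyte genes, where 3.24% of all genes were lower at the same adjusted p. Of 11 slow and cardiac muscle genes 0 were lower and 1, Tnnt2, was higher at 0.96 (limma adjusted p = 0.0213), with a list median of -0.11. Of 8 osteoblast and osteocyte genes 2 were higher, Mepe at 1.57 and Dmp1 at 1.58 (limma adjusted p = 0.000915 and 0.0181), where 1.69% of all genes were higher, and the summed log2 level of the 8 ran from 70.49 to 77.43 in WT and from 77.68 to 79.77 in QT mice.

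Of the 80 respiratory chain genes, 1 differed between the genotypes. It was Cox7a1, the muscle isoform of subunit VIIa of complex IV, which was lower in QT cartilage. The thresholds were those of the study, an adjusted p below 0.05 together with a 1.5-fold difference, and 2.3% of all genes met them, 1.43% as lower. At any fold, 4.93% passed the adjusted p. None of the 70 widely expressed subunits passed the adjusted p, and the lowest adjusted p among them was 0.103. The 95% interval of the change lay within 1.5-fold in both directions for 70 of these 70 genes, against 83.9% of all genes (limma, intervals for single genes). The members did not overlap between genotypes in 0 of 80 cases, against 4.92% of all genes.

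**Figure D1:**
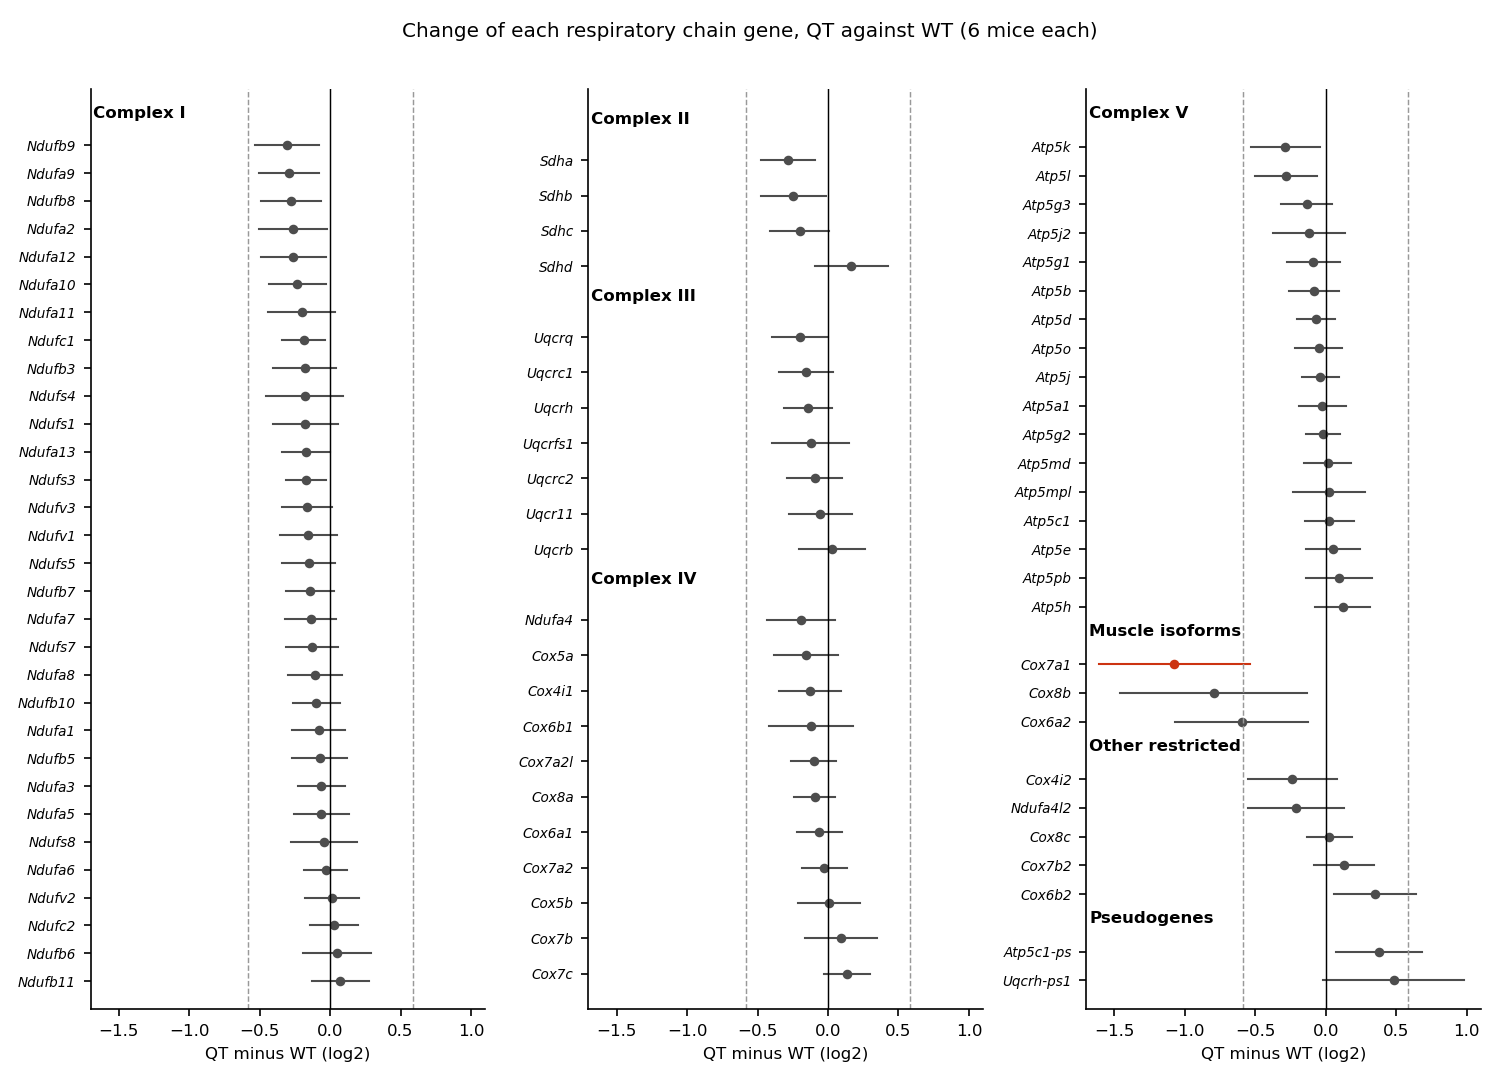
Change of each of the 80 genes (log2 of QT minus WT, 6 mice each), with points for the limma estimate, bars for its 95% interval and dashed lines at 1.5-fold. Only Cox7a1, in red, was called, and the intervals of all 70 widely expressed subunits lie between the dashed lines.

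Small differences in the same direction were common among the widely expressed subunits. The mean was lower in QT mice for 55 of 70 genes, or 78.6%, against 50.3% of all genes, and the median change was -0.11 against -0.0017 over all genes. At an unadjusted p under 0.05, 13 of the 70 were lower and 0 were higher, or 18.6% lower, where 11.8% of all genes were lower and 8.72% higher. These counts are descriptions, since subunits of a complex tend to vary together from mouse to mouse and are not independent. The median change was -0.22 in complex II, -0.15 in complex I, -0.12 in complex III, -0.10 in complex IV and -0.04 in complex V. Without WT replicate 5 the medians were -0.16, -0.11, -0.05, -0.04 and -0.02 in the same order and -0.06 over all 80 genes. Without WT replicates 5 and 6 the medians were -0.14, -0.10, -0.08, -0.02 and 0.0042 in the same order and -0.06 over all 80 genes. Differences between complexes were not tested.

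The 3 muscle isoforms had the lowest changes of the 80 genes. Cox6a2, Cox7a1 and Cox8b encode the forms of subunits VIa, VIIa and VIII that complex IV carries in heart and skeletal muscle, and Cox7a1 and Cox8b are also abundant in brown fat. Cox7a1 had a lowest, median and highest log2 value of 8.32, 8.95 and 9.77 in WT mice and of 7.42, 7.98 and 8.40 in QT mice. The ranges overlapped through a single QT mouse, replicate 3, which lay above WT replicate 4. The change was -1.08 ± 0.25 (SE), a 2.11-fold lower level in QT mice (limma adjusted p = 0.0323, n = 6 each; exact permutation test, two-sided, p = 0.00433, where 6 against 6 mice allow no p under 0.00216). The adjusted p rested on few mice. It ran from 0.022 to 0.0738 when 1 mouse was left out at a time, and the call was lost in 8 of these 12 cases, without WT replicates 1, 3, 5 or 6 or QT replicates 2, 4, 5 or 6. Without WT replicates 5 and 6 together the change was -0.91 with an adjusted p of 0.0969.

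Cox8b had values of 9.24, 9.80 and 10.71 in WT and 8.09, 9.32 and 9.62 in QT mice, again the lowest, median and highest. Its ranges overlapped more widely, and its change of -0.80 ± 0.31 (SE) did not pass (limma adjusted p = 0.199; exact permutation test, two-sided, p = 0.0498). Cox6a2 had values of 9.42, 9.87 and 10.38 in WT and 8.54, 9.34 and 9.90 in QT mice, a change of -0.60 ± 0.22 (SE) that did not pass either (limma adjusted p = 0.174; exact permutation test, two-sided, p = 0.0346). With WT replicates 5 and 6 both left out the changes were -0.69 for Cox8b and -0.55 for Cox6a2 (limma adjusted p = 0.35 and 0.318). QT replicate 5 was the lowest of the 12 mice for all 3 isoforms. The highest was WT replicate 3 for Cox6a2 and Cox8b and WT replicate 5 for Cox7a1. In such tissue samples, fewer cells of a type and less RNA per cell cannot be told apart.

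Each muscle isoform has a partner gene that most tissues use in its place. The partners differed little between genotypes, by -0.03 ± 0.08 for Cox7a2, -0.06 ± 0.07 for Cox6a1 and -0.10 ± 0.07 for Cox8a (SE). The value of the muscle isoform minus that of its partner was compared within each mouse, with p-values adjusted over the 3 pairs. This difference was lower in QT mice for Cox7a1 against Cox7a2, with a change of -1.05 (exact permutation test, two-sided, adjusted p = 0.013), and stayed under 0.05 with each mouse left out, at adjusted p of 0.00649 to 0.0325. Since Cox7a2 hardly changed, this mostly repeats the change of Cox7a1, adjusted here over 3 pairs and not over all probe sets. With the skeletal muscle mean of each array as a covariate the difference of this pair was -0.31 and did not pass (limma, adjusted p = 0.405). Without a covariate the difference was -0.54 for Cox6a2 against Cox6a1 and -0.70 for Cox8b against Cox8a, which did not pass (exact permutation test, adjusted p = 0.0563 each). Without WT replicate 2 or without QT replicate 3 both of these did pass, at adjusted p of 0.039 each and of 0.00974 and 0.0433. With any other single mouse left out neither passed, at adjusted p of up to 0.119 (exact permutation test). Leaving out WT replicates 5 and 6 together gave changes of -0.95, -0.54 and -0.64 for the pairs of Cox7a1, Cox6a2 and Cox8b. Of these only that of Cox7a1 passed (exact permutation test, adjusted p = 0.0286, 0.143 and 0.143).

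**Figure D2:**
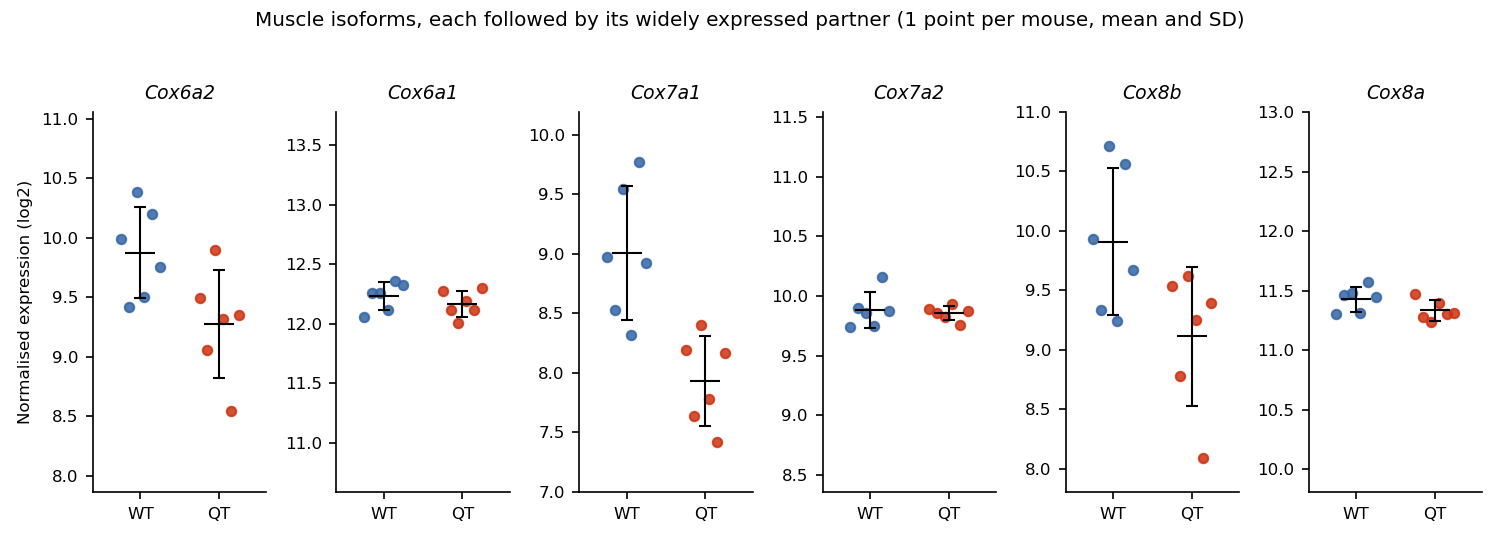
Log2 expression of the 3 muscle isoforms and their partners, with 1 point per mouse, the mean as a dash and the SD as bars, each gene on an axis of its own with the same span. The QT points of Cox7a1 lie between 7.42 and 8.40 and the WT points between 8.32 and 9.77, whereas the points of Cox7a2, Cox6a1 and Cox8a overlap between genotypes.

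The promoters of Cox7a1 and Cox7a2, and of Cox8b and Cox8a, differ in base composition, which is given as a description. Whether it bears on the changes between genotypes was not tested. The sequences are RefSeq windows on GRCm38.p6, from 250 bases before to 50 bases after the gene start, 5′ to 3′ on the strand of the gene, with CpG dinucleotides in capitals. The window of Cox7a1 lies at chr7:30183921-30184220 on the plus strand, that of Cox7a2 at chr9:79759804-79760103, that of Cox8b at chr7:140900397-140900696 and that of Cox8a at chr19:7217567-7217866, these 3 on the minus strand.
Cox7a1: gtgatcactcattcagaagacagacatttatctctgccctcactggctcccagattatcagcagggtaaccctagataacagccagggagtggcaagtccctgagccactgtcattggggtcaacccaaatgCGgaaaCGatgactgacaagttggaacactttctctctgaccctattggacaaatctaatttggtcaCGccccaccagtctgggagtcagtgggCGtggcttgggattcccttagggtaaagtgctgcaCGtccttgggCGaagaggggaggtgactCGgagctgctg
Cox7a2: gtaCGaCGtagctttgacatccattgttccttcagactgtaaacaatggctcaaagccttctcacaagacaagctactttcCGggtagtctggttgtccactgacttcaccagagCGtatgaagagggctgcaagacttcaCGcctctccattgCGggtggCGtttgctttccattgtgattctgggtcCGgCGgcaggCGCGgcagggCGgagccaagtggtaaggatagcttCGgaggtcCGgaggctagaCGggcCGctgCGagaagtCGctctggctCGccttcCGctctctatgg
Cox8b: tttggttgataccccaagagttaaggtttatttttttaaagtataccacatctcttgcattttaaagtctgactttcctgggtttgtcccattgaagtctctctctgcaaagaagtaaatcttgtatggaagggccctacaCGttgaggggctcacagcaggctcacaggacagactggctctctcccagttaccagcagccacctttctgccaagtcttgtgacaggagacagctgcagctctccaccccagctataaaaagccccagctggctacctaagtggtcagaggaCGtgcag
Cox8a: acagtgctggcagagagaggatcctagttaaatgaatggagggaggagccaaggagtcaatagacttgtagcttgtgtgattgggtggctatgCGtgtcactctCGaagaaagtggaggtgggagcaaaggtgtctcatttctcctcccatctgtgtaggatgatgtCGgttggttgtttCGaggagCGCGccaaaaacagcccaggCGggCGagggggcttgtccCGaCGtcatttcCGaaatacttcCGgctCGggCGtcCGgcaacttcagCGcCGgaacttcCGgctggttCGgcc
The Cox7a1 window holds 7 CpG and the Cox8b window 2, against 20 in the Cox7a2 window, 19 in the Cox8a window and 32 in the Cox6a1 window. The median was 19 over the 69 windows found for 64 of the 80 genes and 7 over all 32851 windows of the table. Of the 65 windows of widely expressed subunits 1 held 7 or fewer CpG, against 51.4% of all windows. It was that of Cox7b of complex IV, with 5, and Cox7b had a change of 0.09 ± 0.12 (SE). Cox6a2 had no window. Windows were also searched on both strands for CCGGAAG, the core bound by ETS factors such as GABP, and for GCATGCG, part of the element bound by NRF1, both of which contain a CpG themselves. The ETS letters were in 17 of 69 member windows, or 24.6%, against 8.86% of all windows, and the NRF1 letters in 11, or 15.9%, against 3.58%. The Cox8a window held the ETS letters 2 times, and the other 3 windows printed held neither motif. A match of letters is not a binding site, and promoter use was not measured.

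Markers of tissues that neighbour the cartilage were read beside the muscle isoforms. The summed log2 level of the 22 skeletal muscle genes ran from 197.3 to 228.2 in WT and from 178.5 to 199.9 in QT mice, with 1 of the 22 under the array medians on average. That of the 9 white adipocyte genes ran from 76.5 to 85.74 in WT and from 69.66 to 74.62 in QT mice, and that of the 6 brown adipocyte genes from 43.63 to 51.39 and from 38.13 to 44.45. Muscle creatine kinase, Ckm, fell by 1.31 on the log2 scale (limma adjusted p = 0.0115) and parvalbumin, Pvalb, fell by 1.74 (limma adjusted p = 0.012). Ucp1, the uncoupling protein that defines brown adipocytes, had a change of -1.96 that did not pass (limma adjusted p = 0.116). It was at 7.17, 7.68, 10.01, 7.15, 10.15 and 7.78 in WT replicates 1 to 6 and from 5.46 to 8.19 in QT mice. QT replicate 6, at 8.19, lay above 4 of the 6 WT mice and the other 5 QT mice below every WT mouse, and WT replicates 3 and 5 stood above all others. With the mean of the muscle list, the white adipocyte list or the brown adipocyte list of each array as a covariate, the change of Cox7a1 was -0.21, -0.09 or -0.36 and was not called (limma adjusted p = 0.87, 0.958 and 0.606). These means differ between the genotypes themselves, which lowers the precision of such fits, and their part in the change of Cox7a1 was not tested.

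Within a genotype, the isoforms were set against the mean of the skeletal muscle genes over 6 mice, which makes 6 relations. Pearson's r was 0.83 for Cox7a1 in WT (exact permutation p = 0.0444, adjusted 0.0729; Spearman's rho 0.89, exact permutation p = 0.0333) and 0.68 in QT mice (exact permutation p = 0.103, adjusted 0.103; rho 0.83, exact permutation p = 0.0583). It was 0.82 and 0.87 for Cox6a2 and 0.79 and 0.86 for Cox8b, with adjusted p of 0.0729 to 0.0817 by exact permutation. None of the 6 passed after adjustment. With the 2 mice farthest from the median of the muscle mean left out, r was 0.78, 0.32 and 0.52 for Cox7a1, Cox6a2 and Cox8b in WT and 0.86, 0.94 and 0.95 in QT mice, so the relations of Cox6a2 and Cox8b in WT rest largely on replicates 2 and 4. The mean of slow and cardiac muscle genes in place of the skeletal muscle list gave r = 0.97 for Cox7a1 in WT (exact permutation test, adjusted p = 0.0167). Leaving out WT replicates 3 and 5, the farthest from the median of that mean, gave r = 0.86. By Spearman's rho over the 6 mice, 0.94, this relation did not pass (exact permutation test, adjusted p = 0.0999). The other 5 relations with that list did not pass, with r of 0.86 and 0.93 for Cox6a2 and Cox8b in WT and of 0.45, 0.68 and 0.59 for Cox6a2, Cox7a1 and Cox8b in QT mice (exact permutation test, adjusted p of 0.0501 to 0.388). Against the brown adipocyte mean r was 0.90, 0.89 and 0.95 for Cox6a2, Cox7a1 and Cox8b in WT (exact permutation test, adjusted p = 0.025, 0.0584 and 0.025) and 0.16 to 0.41 in QT mice (adjusted p of 0.591 to 0.767 by exact permutation). Leaving out WT replicates 3 and 5, here too the farthest from the median, lowered the WT values to 0.67, 0.62 and 0.75. By Spearman's rho over the 6 WT mice, 0.83 for Cox6a2 and 0.94 for Cox8b, neither passed (exact permutation test, adjusted p = 0.117 and 0.0999). Against the white adipocyte mean r was 0.64 to 0.69 in WT (exact permutation test, adjusted p = 0.189 each) and 0.81, 0.96 and 0.81 in QT mice (exact permutation test, adjusted p = 0.05 each). Without WT replicates 1 and 6, the farthest from the median, r rose to 0.85, 0.97 and 0.91 for Cox6a2, Cox7a1 and Cox8b. Without QT replicates 3 and 5 it was 0.66, 0.95 and 0.72 in QT mice. The Pearson relations with all 6 mice number 24 over 4 lists, adjusted within each list of 6. The lists share the same 6 mice of a genotype.

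**Figure D3:**
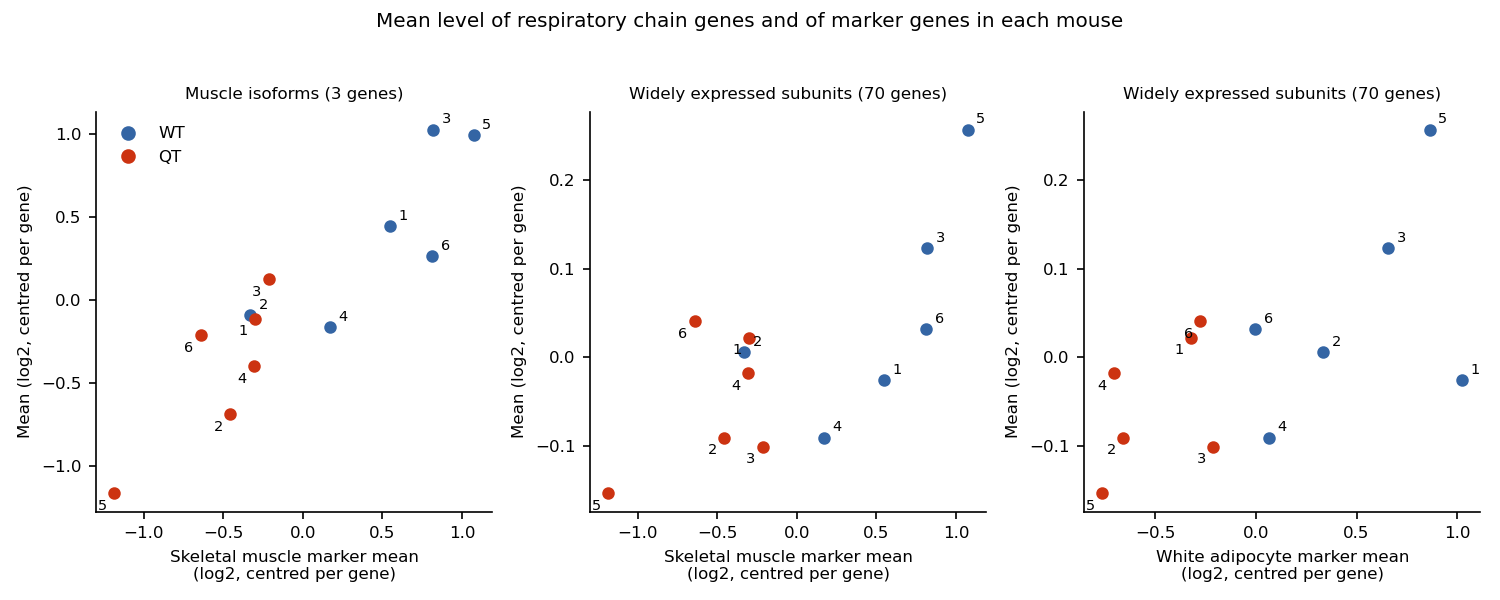
Mean of the 3 muscle isoforms and of the 70 widely expressed subunits in each mouse against the mean of skeletal muscle or white adipocyte markers (log2, each gene centred on its mean over the 12 mice; numbers are replicates, WT blue, QT red). WT replicate 5 is highest for the widely expressed subunits, at 0.26, and QT replicate 5 lowest, at -0.15.

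The widely expressed subunits varied by mouse as well as by genotype. WT replicate 5 had the highest value of the 12 mice for 44 of the 70 genes and the lowest for 0, while the lowest value fell to QT replicate 3 or QT replicate 5 for 15 genes each. The mean of the 70 subunits, with each gene centred on its mean over all mice, ran from -0.09 to 0.26 in WT and from -0.15 to 0.04 in QT mice. The genotypes thus overlapped, and QT replicates 1 and 6, at 0.02 and 0.04, lay above WT replicates 1, 2 and 4, at -0.03, 0.01 and -0.09. The SD over the mice was larger in WT than in QT for 62 of the 70 genes, with medians of 0.17 and 0.12. Without WT replicate 5 the mean was lower in QT mice for 50 of 70 genes, but only 6 were lower at an unadjusted p under 0.05 in place of 13, and 2 without WT replicates 5 and 6 together. That count was 8 without QT replicate 5. WT replicate 5 also had the highest skeletal muscle mean, and QT replicate 5 the lowest. With the skeletal muscle or white adipocyte mean as a covariate, 26 and 32 of the 70 subunits had a negative change and 0 were lower at an unadjusted p under 0.05. The part of these tissues in the small differences was not tested.

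Complex I, the NADH dehydrogenase, is the largest complex of the chain. Of its 31 measured genes 27 had a lower mean in QT mice, or 87.1%, and 9 were lower at an unadjusted p under 0.05, or 29%, against 11.8% of all genes. None passed the adjusted p, where the lowest value was 0.139. The core subunits carry the flavin and the iron-sulfur clusters through which electrons run. Ndufv1, which binds the flavin and takes electrons from NADH, had values of 9.57, 9.72 and 10.05 in WT and 9.39, 9.60 and 9.77 in QT mice, as lowest, median and highest, a change of -0.16 ± 0.09 (SE, limma adjusted p = 0.423). The iron-sulfur subunit Ndufs1 was at -0.18 ± 0.11 (SE, limma adjusted p = 0.429) and Ndufs7, which lies next to the ubiquinone site, at -0.13 ± 0.08 (SE, limma adjusted p = 0.461). Of the other core subunits, chosen to complete the set after their values were seen, Ndufs3 was at -0.17, Ndufs8 at -0.05 and Ndufv2 at 0.01. The median change was -0.14 over the 6 core subunits and -0.15 over the 25 accessory ones, which surround the core.

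The lowest change of complex I was that of Ndufb9, an accessory subunit of the membrane arm. Its values were 9.57, 9.84 and 10.22 in WT and 9.30, 9.55 and 9.71 in QT mice, a change of -0.31 ± 0.11 (SE, limma adjusted p = 0.143). The ranges overlapped, and the highest value was that of WT replicate 5. Ndufa9 and Ndufb8, added for being next in order, were at -0.29 and -0.28. At the other end, Ndufb11, also of the membrane arm, had a change of 0.07 ± 0.09 (SE). Ndufa12, an accessory subunit of the arm in the matrix, showed the limit of a single probe set, with -0.26 from its brightest probe set and 0.15 from a dimmer second set (limma adjusted p = 0.23 and 0.319). The level of Ndufs5 lay under the array medians, so that it is not shown to be above background.

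Complex II, succinate dehydrogenase, links the citric acid cycle to the chain and is encoded wholly in the nucleus by 4 genes. The catalytic subunit Sdha, which binds the flavin, had values of 10.65, 10.77 and 11.08 in WT and 10.37, 10.54 and 10.73 in QT mice. Its change of -0.29 ± 0.09 (SE) had the lowest adjusted p of the widely expressed subunits and did not pass (limma adjusted p = 0.103). Only QT replicate 1 lay within the WT range. Sdhb, the iron-sulfur subunit, had values of 7.88, 8.17 and 8.55 in WT and 7.66, 7.98 and 8.04 in QT mice, a change of -0.25 ± 0.11 (SE, limma adjusted p = 0.258). The membrane anchors had changes of -0.20 ± 0.10 for Sdhc and 0.17 ± 0.12 for Sdhd (SE, limma adjusted p = 0.306 and 0.503), and the WT and QT ranges of both overlapped. With WT replicate 5 left out the changes of Sdha and Sdhb were -0.23 and -0.17.

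Complex III, the cytochrome bc1 complex, moves electrons from ubiquinol to cytochrome c. Of 7 genes 6 had a lower mean in QT mice and 0 passed even an unadjusted p under 0.05. The core proteins Uqcrc1 and Uqcrc2 were at -0.16 ± 0.09 and -0.09 ± 0.09, and the Rieske iron-sulfur protein Uqcrfs1 at -0.12 ± 0.13 (SE, limma adjusted p of 0.387 to 0.665). The small subunit Uqcrq was lowest, with values of 7.37, 7.51 and 7.79 in WT and 7.17, 7.36 and 7.48 in QT mice and a change of -0.20 ± 0.09 (SE, limma adjusted p = 0.298). Uqcrb, another small subunit, was highest at 0.03 ± 0.11 (SE). Without WT replicate 5 the median change of the complex was -0.05 in place of -0.12, and without QT replicate 1 it was -0.17.

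Complex IV, cytochrome c oxidase, is where the isoforms belong, and its 11 widely expressed subunits differed less than the muscle forms. Of these 8 had a lower mean in QT mice and 0 passed an unadjusted p under 0.05. Cox4i1, the subunit IV of most tissues, had values of 8.86, 9.16 and 9.52 in WT and 8.91, 8.99 and 9.20 in QT mice, a change of -0.13 ± 0.10 (SE, limma adjusted p = 0.548). The changes were -0.16 ± 0.11 for Cox5a, 0.01 ± 0.10 for Cox5b and -0.12 ± 0.14 for Cox6b1 (SE). Ndufa4, which was named for complex I and is now assigned to complex IV, was lowest at -0.19 ± 0.11, and Cox7c was highest at 0.14 ± 0.08 (SE, limma adjusted p = 0.411 and 0.382). Cox7a2l, a relative of subunit VIIa, was at -0.10 ± 0.07 (SE).

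Complex V had the median nearest to 0. Of its 17 genes 11 had a lower mean in QT mice, and 2 were lower at an unadjusted p under 0.05. The catalytic beta subunit Atp5b, with its partner alpha, Atp5a1, makes the head of the enzyme. Atp5b had values of 12.01, 12.13 and 12.37 in WT and 11.89, 12.14 and 12.19 in QT mice, a change of -0.08 ± 0.08 (SE, limma adjusted p = 0.653), and Atp5a1 was at -0.03 ± 0.08. The central stalk subunit Atp5c1 was at 0.03 ± 0.08 (SE). The 3 genes that encode the same subunit of the membrane ring were at -0.09 for Atp5g1, -0.02 for Atp5g2 and -0.14 for Atp5g3, and Atp5g1 lay under the array medians, as did Atp5j2. The 2 lowest were Atp5k and Atp5l, which encode subunits e and g and sit together where ATP synthase dimers meet. Atp5k had values of 8.54, 8.89 and 9.12 in WT and 8.36, 8.50 and 8.78 in QT mice, a change of -0.29 ± 0.11, and Atp5l of 7.70, 8.03 and 8.13 and of 7.49, 7.63 and 8.02, a change of -0.28 ± 0.10 (SE, limma adjusted p = 0.208 and 0.162). Atp5h, of the peripheral stalk, was highest at 0.12 ± 0.09 (SE).

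The 5 isoforms restricted to other settings did not share the pattern of the muscle forms. Cox4i2, a form of subunit IV known from lung and low oxygen, was at -0.24 ± 0.15, and Ndufa4l2, a relative of Ndufa4 that low oxygen induces, at -0.21 ± 0.16 (SE, limma adjusted p = 0.433 and 0.523). Ndufa4l2 had values of 8.61, 9.30 and 9.80 in QT mice, a range that enclosed that of the WT mice, 9.20 to 9.59. Of the isoforms known from testis, Cox6b2 had values of 5.94, 6.49 and 6.56 in WT and 6.36, 6.72 and 7.02 in QT mice, a change of 0.35 ± 0.13 (SE, limma adjusted p = 0.204). Cox7b2 and Cox8c lay under the array medians and were at 0.13 and 0.03. The pseudogenes Atp5c1-ps and Uqcrh-ps1, also under the array medians, had changes of 0.38 and 0.48 (limma adjusted p = 0.181 and 0.313) and are not shown to be above background.

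Other genes of the mitochondrion were read in the same fit, where 3.24% of all genes were lower and 1.69% higher at the adjusted p. Of 10 measured subunits encoded by mitochondrial DNA 0 passed and the median change was -0.04, with ND2 at -0.06 and ND6 at 0.13. Of 43 assembly factors 2 were lower and 0 higher. These were Cox14, which helps to make the core of complex IV, at -0.36 (limma adjusted p = 0.0286), and Sdhaf3, which helps to place the iron-sulfur clusters of Sdhb, at -0.34 (limma adjusted p = 0.0367). Of 14 carriers and other partners of the chain 0 passed, and the muscle creatine kinase of mitochondria, Ckmt2, was at -0.96 and the uncoupling protein Ucp3 at -0.53 (limma adjusted p = 0.104 and 0.13). Of 16 genes of the citric acid cycle 0 passed and the median was -0.21. Its lowest genes were Pdhb, of pyruvate dehydrogenase, at -0.35 and Ogdh, of oxoglutarate dehydrogenase, at -0.30 (limma adjusted p = 0.139 and 0.0524).

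Of 17 genes of fatty acid oxidation 2 were lower and 0 higher, with a median of -0.25. Hadh, a dehydrogenase of the cycle, had a lowest, median and highest value of 11.06, 11.31 and 11.55 in WT and 10.72, 10.88 and 11.11 in QT mice and a change of -0.42 (limma adjusted p = 0.0395). Eci1, an isomerase for unsaturated fatty acids, was at -0.46 (limma adjusted p = 0.0438). Of 16 regulators of mitochondrial genes 0 passed. Perm1, a muscle regulator, was at -0.61 and Ppargc1a, the coactivator that drives the formation of mitochondria, at -0.51 (limma adjusted p = 0.0511 and 0.279). Of 14 genes that report mitochondrial mass 1 was lower, the fusion protein Mfn2, at -0.31 (limma adjusted p = 0.0438), and the median was 0.03.

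**Figure D4:**
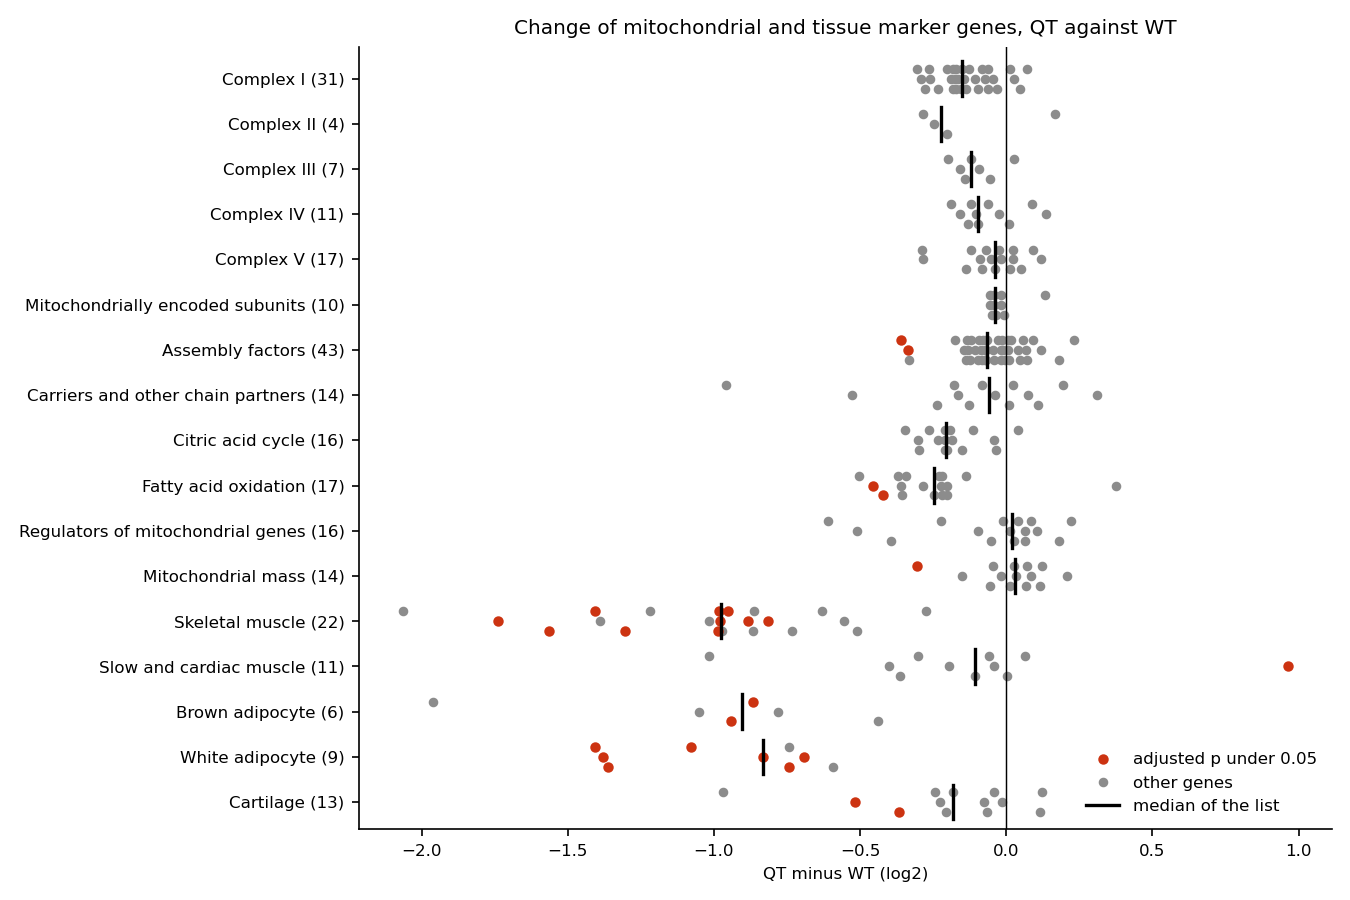
Change of each gene (log2 of QT minus WT) in the 5 complexes, in further mitochondrial lists and in marker lists of tissues, with the number of genes in brackets, red points for genes past the adjusted p and a bar at the median of each list. The widely expressed subunits lie between -0.31 and 0.17, with no red point, whereas the skeletal muscle and white adipocyte genes have medians of -0.98 and -0.83.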

How the data were processed

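RNA from the sternal cartilage of each of 12 mice, 6 per genotype, was hybridised to an array of its own. The authors deposited log2 values for 41345 probe sets, made by robust multiarray average (RMA). RMA removes background, forces the arrays to a common distribution and combines the probes of a set, so it hides any shift common to most genes. The submitters' processing notes name Partek 6.6 for this step. For the genome build, the sources used here give nothing. A single gene was named for 23521 probe sets in the platform table, several genes for 1820 and no gene for 16004. Probes of a gene with close copies may bind those as well.

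From these values, all 41345 probe sets were fitted with limma 3.58.1 in R 4.3.3 (lmFit and eBayes, genotype only, 10 residual and 2.93 prior degrees of freedom), with Benjamini-Hochberg adjustment over all of them. Called genes had an adjusted p below 0.05 and differed at least 1.5-fold. The scripts were tested on simulated data. The isoforms and pair differences were compared by exact permutation, over 924 arrangements with all 12 mice and fewer with mice left out. Correlations were tested by exact permutation of the pairings within the 6 mice of a genotype. Pair differences with the muscle covariate were tested with limma. Precision is limited by the number of arrays. The labels call the mice biological replicates.

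Members, gene lists and tests were chosen with earlier results of these data known. Named were each gene past the adjusted p, the highest and lowest of each complex, the isoforms and their partners, core and catalytic subunits, genes with a mouse far from its group, and in further lists up to 4 genes past the adjusted p or otherwise up to 2. Alternatives were other normalizations, probe filters, variance models, thresholds and probe set choices, Storey's q value, the replicate number as a block, tissue means as covariates and mice left out. The brown adipocyte covariate, the grouping of complexes by symbol alone and the recount of subunits with a lower mean were added after seeing the data.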

Additional observations from a re-analysis of the deposited data

Results flagged for a closer look

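In 7 of the 174 groups of 6 mice, or 4.02%, the highest or lowest mouse lay apart from its group by Dixon's test at the 95% level, where chance gives about 1 in 20. Of these, 3 were WT replicate 5, at 8.34 for Atp5mpl, a small membrane subunit of complex V (the other WT mice 7.63 to 7.87), at 8.57 for Cox5a (7.96 to 8.17) and at 10.05 for Ndufv1 (9.57 to 9.75). WT replicate 1 was at 6.07 for Atp5j2 (5.47 to 5.64), and WT replicate 2 at 6.45 for Ndufa5, an accessory subunit of complex I (6.79 to 6.99). QT replicate 4 was at 11.5 for Atp5g2 (11.36 to 11.40) and at 4.33 for Cox8c (4.55 to 4.65). Atp5j2 and Cox8c lie under the array medians.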

How the results depend on the processing

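The call of Cox7a1 depended on the processing. With the replicate number as a block, 0 respiratory chain genes were lower by either rule, and Cox7a1 was at -1.08 (adjusted p = 0.069), with no other call to change. The numbers do not pair the mice, since same-numbered mice correlated at -0.213 to -0.008 and 0 of 6 numbers matched best with themselves. The call was also lost, leaving 0 genes lower, without WT replicates 5 and 6 together (-0.91) and with the muscle or white adipocyte covariate (-0.21 and -0.088), as it was with the brown adipocyte covariate (-0.36). Signs turned for Cox6a2, at 0.20 and 0.23 with the muscle and white adipocyte covariates, and for Cox8b, at 0.33, 0.39 and 0.077 with the muscle, white and brown adipocyte covariates. With the muscle covariate, the pair differences were -0.31 for Cox7a1, which no longer passed, 0.20 for Cox6a2 and 0.35 for Cox8b. Median changes with the muscle covariate were 0.041, 0.025, 0.028, 0.060, 0.10, 0.068 and 0.20 for all members, complex I, complex II, complex III, complex IV, complex V and muscle isoforms. Among uncalled genes the sign turned with it for Atp5a1, Atp5b, Atp5g2, Cox4i1, Cox5a, Cox6b1, Cox7a2, Ndufa4, Ndufa5, Ndufs1, Ndufs8, Ndufv1, Sdhb, Uqcrc1, Uqcrc2, Uqcrfs1 and Uqcrq, at 0.11, 0.068, 0.0047, 0.035, 0.12, 0.21, 0.10, 0.058, 0.18, 0.13, 0.090, 0.025, 0.14, 0.060, 0.11, 0.027 and 0.026. Median changes with the white adipocyte covariate were 0.041, -0.0076, -0.0068, 0.025, 0.055, 0.040 and 0.23 for all members, complex I, complex II, complex III, complex IV, complex V and muscle isoforms. Among uncalled genes the sign turned with it for Atp5a1, Atp5b, Cox5a, Cox6b1, Cox7a2, Ndufa4, Ndufa5, Ndufs1, Ndufs7, Ndufs8, Ndufv1, Sdhb, Uqcrc2 and Uqcrfs1, at 0.13, 0.11, 0.079, 0.088, 0.050, 0.060, 0.13, 0.20, 0.11, 0.048, 0.042, 0.0095, 0.21 and 0.025. Cyclic loess turned it for Cox5b and Ndufv2, at -0.0052 and -0.0042. Leaving out WT replicates 5 and 6 turned it for Atp5a1, Atp5g2, Cox7a2, Ndufs8 and Uqcrb, at 0.025, 0.0042, 0.043, 0.018 and -0.012. The slow and cardiac muscle list in place of the skeletal one gave r = 0.97 for Cox7a1 in WT, which passed by Pearson's r but not by Spearman's rho. The cause of these shifts was not tested. With 1 mouse left out at a time, called genes numbered 0 to 1 by either rule, Cox7a1 ranged from -1.21 to -0.92, and the pair differences from -1.16 to -0.94 for Cox7a1, from -0.69 to -0.40 for Cox6a2 and from -0.82 to -0.50 for Cox8b. Uncalled genes that turned sign were Atp5a1 (-0.060 to 0.022), Atp5c1 (-0.0087 to 0.074), Atp5mpl (-0.026 to 0.12), Cox5b (-0.037 to 0.053), Cox7a2 (-0.053 to 0.031), Cox8c (-0.0093 to 0.070), Ndufs8 (-0.11 to 0.0033), Ndufv2 (-0.045 to 0.053) and Uqcrb (-0.041 to 0.10). Medians kept their sign in each of these fits, from -0.13 to -0.063 over all members. Cyclic loess, array centring, the dim probe filter, the variance model, Storey's q value, fold thresholds of 1.2 and 2 and the mean of all probe sets left Cox7a1 as the 1 gene called, and complexes grouped by symbol alone kept their medians within the spread of the mice. Probe sets near the array medians limit what 6 mice per genotype can show.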
